A study of Mus musculus with 9 samples.

Results

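A set of 10 genes that control the entry of cells into S phase was described by RNA-seq in RAW264.7, a mouse macrophage cell line. They are the D-type cyclins Ccnd1, Ccnd2 and Ccnd3, the E-type cyclins Ccne1 and Ccne2, the cyclin-dependent kinases (CDKs) Cdk2, Cdk4 and Cdk6, and the CDK inhibitors Cdkn1a (p21) and Cdkn1b (p27). The members were chosen by gene symbol with their group values in these libraries already known, so their differences between groups are given as a description, with no p-value. Where members called by a fit to all genes are counted, the count uses the values that chose them and is not a test of the members. They are 10 of 28137 Ensembl gene identifiers in the deposited table, 27533 of them named in GENCODE M21, and each of the 10 symbols matched a single identifier. All 10 passed the filter on low values, a mean of at least 0.5 FPKM (fragments scaled to exon length and to the size of the library) over the 6 libraries of a comparison.

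D-type cyclins are made in response to growth factors and bind Cdk4 and Cdk6, while E-type cyclins bind Cdk2 later in G1. The active kinases phosphorylate Rb and its relatives, which frees E2F factors to switch on the genes of DNA replication. Cdkn1a and Cdkn1b bind cyclin-CDK complexes, and macrophages that are activated by lipopolysaccharide (LPS) are known to slow their proliferation.

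The 9 libraries used here were 3 transfected with a control siRNA (NC), 3 with siRNA against SFRP2, and 3 with siRNA against RAB6A. SFRP2 is a secreted modulator of Wnt signaling, and RAB6A a small GTPase of Golgi traffic. The text of the study does not mention RAB6A siRNA, so that group is known from the labels alone. RNA-seq of mouse wound tissue in the same study was not used here. Per the labels, RAW264.7 cells in DMEM received 60 nM siRNA with a lipid reagent for 6 h and then complete medium for 12 h. All groups, including NC, were afterwards exposed to LPS at 100 ng/ml for 24 h, so no library without LPS was compared. Each title ends in 6H, and the titles do not say which step this time belongs to. The methods of the study differ from the labels in the dose of siRNA, the recovery time, the medium and the reagent, and name interferon gamma beside LPS. The titles number the SFRP2-labeled libraries as siRNA-1 to siRNA-3. The supplement of the study lists 3 siRNA sequences under the same names. Whether each library received a different siRNA is not stated, and the 3 libraries were treated as replicates. The labels do not say whether the 3 libraries of a group came from separate cultures, and a general remark on independent experiments in the study does not name these libraries, so that p-values measure only the spread between these libraries.

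Reads behind the FPKM values were recovered from their smallest steps. The library sizes that these steps imply were 32758730 to 47149258 reads. The RAB6A siRNA libraries (32758730 to 37833881) were below those of NC (41608379 to 47149258). The reads recovered for genes summed to 28467630 to 41950318 per library. The targeted gene Rab6a was at 24.3, 27.3 and 25.5 FPKM in NC and at 21.2, 20.7 and 20.4 FPKM with RAB6A siRNA. It fell by 0.31 on the log2 scale (SE 0.06, adjusted p = 0.0024, limma), or by 19.2% of its mean. In this comparison 36.5% of all genes were called lower, so this fall is by itself no firm check of the RAB6A label. Sfrp2 had 2 to 4 reads in each library, with 0.0213 ± 0.0014 FPKM in NC and 0.0401 ± 0.0116 FPKM (SD, n = 3) in the SFRP2-labeled libraries, and so gives no check of that label. The 8 macrophage markers summed to 4516 to 4982 FPKM in NC, 3998 to 4323 FPKM with SFRP2 siRNA and 3945 to 4097 FPKM with RAB6A siRNA. The 5 fibroblast markers stayed between 1.03 and 3.08 FPKM in sum and the 4 endothelial markers between 0.32 and 0.781 FPKM. The 5 epithelial markers summed to 0.308 to 2.83 FPKM.

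Promoters of the members, the 250 bases before the start site, were taken from RefSeq (GRCm38.p6). Entries were found for 7 of the 10 members, and not for Ccnd1, Ccnd2 and Ccne2. The promoters of Cdk4 and Cdk6 are shown as the member windows with the E-box CACGTG, the site that Myc with Max is known to bind. Capitals mark each E-box, which reads the same on both strands. Cdk4 lies on the + strand (chr10:127063285-127063534) and holds 4 E-boxes, the first 172 bases before the start. Cdk6 lies on the + strand (chr5:3343643-3343892) and holds 1, which is 220 bases before the start. This window lies inside the gene span of Cdk6 in GENCODE M21, which starts at 3341485. Of 27025 promoters of this length, 6.05% hold this motif. It was not found in any window of Ccne1, Cdk2, Ccnd3, Cdkn1a and Cdkn1b. The part of this motif in the levels of the members was not tested.
Cdk4: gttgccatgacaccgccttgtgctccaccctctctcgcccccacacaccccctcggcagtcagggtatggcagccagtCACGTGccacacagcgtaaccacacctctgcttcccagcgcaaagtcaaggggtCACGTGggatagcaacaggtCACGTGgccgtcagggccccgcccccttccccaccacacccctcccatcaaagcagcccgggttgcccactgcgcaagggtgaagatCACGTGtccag
Cdk6: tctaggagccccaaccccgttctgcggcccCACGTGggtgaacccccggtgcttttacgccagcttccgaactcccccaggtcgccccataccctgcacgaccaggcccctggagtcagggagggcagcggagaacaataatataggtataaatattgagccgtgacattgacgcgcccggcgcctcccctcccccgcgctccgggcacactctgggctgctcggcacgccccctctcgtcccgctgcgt

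The promoter of Cdk2 is shown as the member window with an E2F motif, searched on both strands as TTTCCCGC, TTTCGCGC, TTTGCCGC or TTTGGCGC. It lies on the - strand (chr10:128705052-128705301), and the capitals mark the motif, which is read here on the opposite strand, 140 bases before the start. Of all 27025 promoters, 1.91% hold this motif. Other motifs were also searched on both strands. The CCAAT box CCAAT (34.5% of promoters) was in windows of Cdkn1b, Cdk2 and Ccnd3. The GC box GGGCGG (32.9%) was in windows of Cdkn1b, Ccne1, Cdk4, Cdk2, Cdkn1a and Ccnd3. Cdkn1a and Ccnd3 had windows at different start sites. For Cdkn1a the GC box was in chr17:29093519-29093768 and not in chr17:29090729-29090978. For Ccnd3 the CCAAT box was in chr17:47593217-47593466 and not in chr17:47504801-47505050. A match is a description of letters and not of binding, and the FOXO motif TTGTTTAC (1.05% of promoters) was found in none of the windows of the 7 members.
Cdk2: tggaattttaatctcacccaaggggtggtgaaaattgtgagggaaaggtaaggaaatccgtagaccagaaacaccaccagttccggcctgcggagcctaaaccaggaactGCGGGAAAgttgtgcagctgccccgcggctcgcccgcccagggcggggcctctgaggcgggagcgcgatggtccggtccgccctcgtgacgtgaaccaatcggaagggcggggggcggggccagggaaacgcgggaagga

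FPKM are scaled to gene length, so that levels can be set in order between genes. In the NC libraries the mean level was highest for Cdkn1a (116 FPKM) and Ccnd1 (103 FPKM), followed by Cdk4 (55.4 FPKM), Cdk6 (17.2 FPKM), Ccne1 (16.5 FPKM), Ccnd2 (15.3 FPKM), Ccne2 (11.7 FPKM), Cdk2 (9.56 FPKM), Ccnd3 (6.31 FPKM) and Cdkn1b (4.47 FPKM). Of neighbours in this order, Cdk6 and Ccne1 overlapped between libraries and the others did not. In the SFRP2-labeled libraries the order was the same, and overlap was found between Cdk6 and Ccne1, between Ccne1 and Ccnd2, and between Ccnd3 and Cdkn1b. With RAB6A siRNA the order of mean levels was Cdkn1a, Ccnd1, Cdk4, Cdkn1b, Cdk6, Cdk2, Ccnd3, Ccne1, Ccnd2 and Ccne2, so that Cdkn1b moved from the lowest place to the fourth. Cdk6 overlapped with Cdk2 there, and Cdk2 with Ccnd3.

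**Figure D1:**
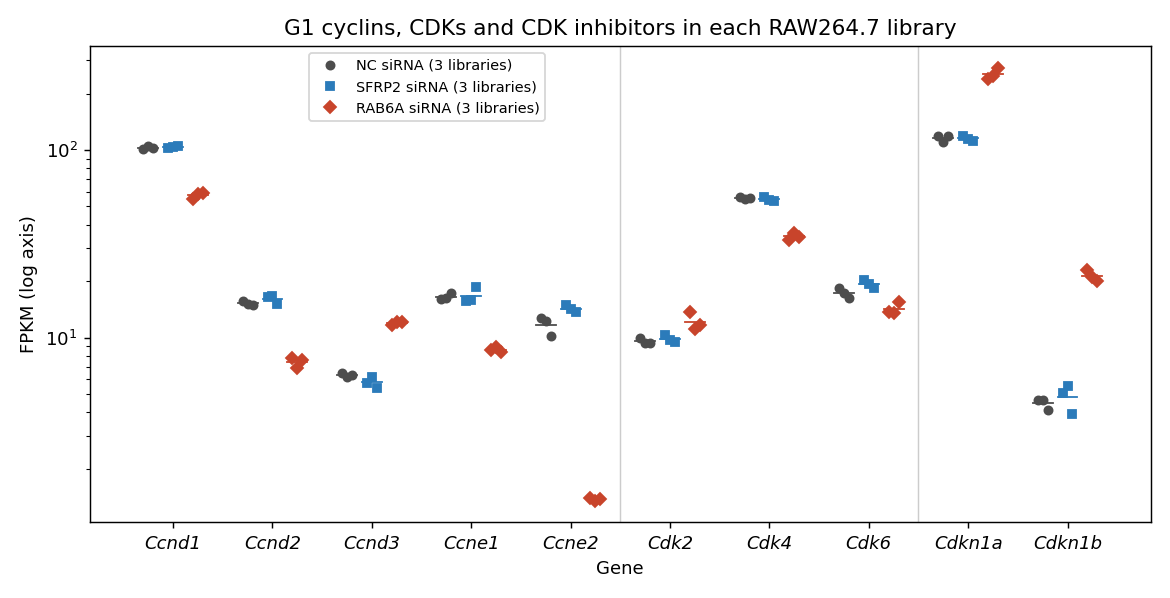
FPKM (log axis) of the 10 genes in each of 9 RAW264.7 libraries, with points for single libraries and lines for group means (3 libraries per group). The RAB6A siRNA libraries lie apart from the other groups for each gene, with Ccne2 near 1.38 FPKM and Cdkn1b near 21.3 FPKM.

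Among the D-type cyclins, which carry growth factor signals to Cdk4 and Cdk6, Ccnd1 and Ccnd2 were lower and Ccnd3 was higher with RAB6A siRNA than with NC. Ccnd1 (ENSMUSG00000070348, chr7:144929931-144939925, - strand of GRCm38) was the most abundant cyclin of this set. Its FPKM was 101, 105 and 102 in NC, 103, 104 and 105 in the SFRP2-labeled libraries, and 55.1, 58.1 and 59.4 with RAB6A siRNA. The RAB6A siRNA libraries were below all others, while the remaining libraries overlapped. The mean of Ccnd1 was 103 ± 1.92 FPKM in NC and 57.5 ± 2.21 FPKM (SD, n = 3) with RAB6A siRNA, a log2 fold change of -0.84 (SE 0.05). In GENCODE M21, 23.4% of its exon bases are shared with LTO1 on the opposite strand, and it is not stated whether reads were counted by strand. LTO1 was at 2.32 FPKM in NC and 2.55 FPKM with RAB6A siRNA.

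Ccnd2 (ENSMUSG00000000184, chr6:127125162-127152193, - strand), a D-type cyclin of lower abundance than Ccnd1 here, had 15.7, 15.2 and 14.9 FPKM in NC and 16.5, 16.6 and 15.1 FPKM in the SFRP2-labeled libraries. With RAB6A siRNA it had 7.81, 6.92 and 7.61 FPKM, below each other library. Its log2 fold change against NC was -1.03 (SE 0.07), and the ratio of the NC mean to the RAB6A mean was 2.05. Ccnd3 (ENSMUSG00000034165, chr17:47505051-47599691, + strand), the D-type cyclin that is widely expressed in blood cells, went the other way. It was at 6.45, 6.15 and 6.34 FPKM in NC, at 5.73, 6.15 and 5.42 FPKM in the SFRP2-labeled libraries and at 11.7, 12.1 and 12.1 FPKM with RAB6A siRNA. The 3 RAB6A siRNA values were above all others, with a ratio to NC of 1.9 and a log2 fold change of 0.91 (SE 0.06). Of the exon bases of Ccnd3, 4.11% overlap those of Bysl on the other strand, and Bysl was at 24.2 FPKM in NC and at 9.76 FPKM with RAB6A siRNA.

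The makeup of the D-type cyclin transcripts therefore differed as well as their sum. The summed level of the 3 D-type cyclins was 124 ± 1.61 FPKM in NC, 126 ± 0.799 FPKM in the SFRP2-labeled libraries and 76.9 ± 2.28 FPKM (SD, n = 3) with RAB6A siRNA. Ccnd3 made up 4.88% to 5.24% of this sum in the NC libraries, 4.32% to 4.86% in the SFRP2-labeled libraries and 15.4% to 15.7% in those with RAB6A siRNA. Ccnd1 remained the main D-type cyclin, at 82.6% of the sum in NC and 74.7% with RAB6A siRNA. Shares and sums are of FPKM, and no test was run on them. In bulk samples, fewer cells that express a gene and less of its RNA per cell cannot be told apart.

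The E-type cyclins, which activate Cdk2 at the start of S phase, were both lower with RAB6A siRNA. Ccne1 (ENSMUSG00000002068, chr7:38097984-38107534, - strand) was at 16.1, 16.2 and 17.3 FPKM in NC, 15.7, 15.9 and 18.6 FPKM in the SFRP2-labeled libraries and 8.61, 8.87 and 8.36 FPKM with RAB6A siRNA. All RAB6A siRNA values lay under the others, with a ratio of the NC mean to the RAB6A mean of 1.92 and a log2 fold change of -0.93 (SE 0.06). Ccne2 (ENSMUSG00000028212, chr4:11191351-11204779, + strand) had the widest range of the 10 genes. It was at 12.7, 12.3 and 10.2 FPKM in NC, at 15.0, 14.2 and 13.7 FPKM in the SFRP2-labeled libraries, and at 1.4, 1.35 and 1.38 FPKM with RAB6A siRNA. The 3 groups did not overlap in any pair, and the RAB6A siRNA libraries were far below the rest. The mean was 11.7 ± 1.36 FPKM in NC and 1.38 ± 0.0238 FPKM (SD, n = 3) with RAB6A siRNA, a ratio of 8.51 and a log2 fold change of -2.99 (SE 0.10).

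The smallest number of reads behind a value of Ccne2 was 158, so its low level was counted and was not at the limit of detection. Ints8, a subunit of the Integrator complex, shares 17.4% of the exon bases of Ccne2 on the opposite strand and had 4.53 FPKM in NC and 4.57 FPKM with RAB6A siRNA. Of the summed E-type cyclin FPKM, Ccne2 made up 37.0% to 44.2% in NC, 42.4% to 48.8% in the SFRP2-labeled libraries and 13.2% to 14.2% with RAB6A siRNA. This sum was 28.2 ± 0.661 FPKM in NC, 31.0 ± 1.1 FPKM in the SFRP2-labeled libraries and 9.99 ± 0.241 FPKM (SD, n = 3) with RAB6A siRNA.

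**Figure D2:**
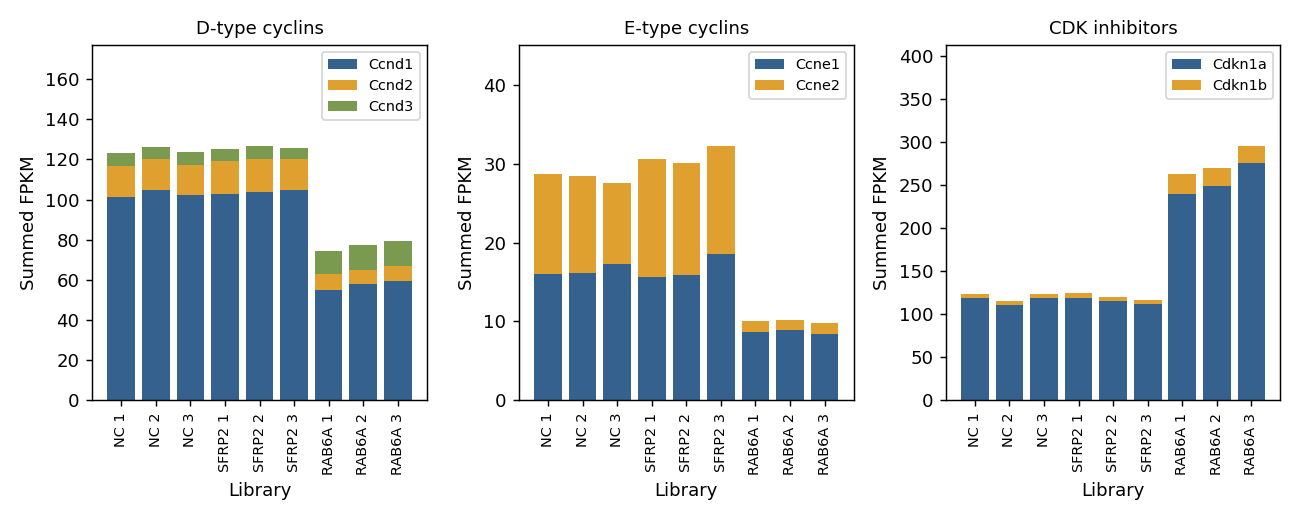
Summed FPKM of the D-type cyclins, the E-type cyclins and the 2 CDK inhibitors in each of the 9 libraries, with stacked colors for the genes. The RAB6A siRNA libraries have the lowest cyclin sums (means of 76.9 and 9.99 FPKM) and the highest inhibitor sums (mean of 276 FPKM).

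The kinases differed less between groups than the cyclins or the inhibitors, with a range of group means of 0.34 (Cdk2) to 0.68 (Cdk4) on the log2 scale, where that of the other members was 0.85 (Ccnd1) to 3.28 (Ccne2). Cdk4 (ENSMUSG00000006728, chr10:127063534-127067920, + strand), a partner of D-type cyclins, was at 55.9, 54.9 and 55.5 FPKM in NC, 56.3, 54.3 and 53.6 FPKM in the SFRP2-labeled libraries and 33.3, 36.1 and 34.4 FPKM with RAB6A siRNA. The RAB6A siRNA values were below all others, and the log2 fold change was -0.68 (SE 0.05). Tspan31, a tetraspanin gene on the opposite strand, shares 19.7% of the exon bases of Cdk4 and was at 16.4 FPKM in NC and 26.7 FPKM with RAB6A siRNA, a difference in the other direction. Cdk6 (ENSMUSG00000040274, chr5:3341485-3531008, + strand), the other partner of D-type cyclins, was at 18.3, 17.2 and 16.2 FPKM in NC and at 20.2, 19.4 and 18.5 FPKM in the SFRP2-labeled libraries. With RAB6A siRNA it was at 13.7, 13.5 and 15.5 FPKM, below each other library by a small margin, and its log2 fold change was -0.28 (SE 0.08). This value was -0.16 after quantile normalization, where Cdk6 was not called.

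Cdk2 (ENSMUSG00000025358, chr10:128697939-128705031, - strand), the partner of E-type cyclins, was the kinase that was higher with RAB6A siRNA. It was at 9.9, 9.35 and 9.41 FPKM in NC, 10.3, 9.72 and 9.49 FPKM in the SFRP2-labeled libraries and 13.7, 11.1 and 11.7 FPKM with RAB6A siRNA. One RAB6A siRNA library stood above the other two, and all 3 were above the other groups, with a log2 fold change of 0.34 (SE 0.09). The ratio of Cdk2 to Cdk4 FPKM was 0.172 ± 0.00412 in NC, 0.179 ± 0.00277 in the SFRP2-labeled libraries and 0.352 ± 0.0526 (SD, n = 3) with RAB6A siRNA.

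The inhibitors were both higher with RAB6A siRNA. Cdkn1a (ENSMUSG00000023067, chr17:29090976-29100727, + strand), a target of p53 that binds cyclin-CDK complexes, was the most abundant of the 10 genes in every group. It was at 119, 111 and 119 FPKM in NC, 119, 115 and 112 FPKM in the SFRP2-labeled libraries, and 239, 249 and 275 FPKM with RAB6A siRNA. The RAB6A siRNA values were above all others, and the first 2 groups overlapped. The means were 116 ± 4.53 FPKM in NC and 254 ± 18.5 FPKM (SD, n = 3) with RAB6A siRNA, which is 2.19-fold higher with a log2 fold change of 1.13 (SE 0.07).

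Cdkn1b (ENSMUSG00000003031, chr6:134920401-134925513, + strand), an inhibitor that is typical of resting cells, was at 4.65, 4.63 and 4.11 FPKM in NC and at 5.1, 5.5 and 3.9 FPKM in the SFRP2-labeled libraries. It reached 22.9, 21.1 and 19.9 FPKM with RAB6A siRNA, far above the other libraries, which overlapped. Its mean was 4.47 ± 0.305 FPKM in NC and 21.3 ± 1.5 FPKM (SD, n = 3) with RAB6A siRNA, 4.77-fold higher, and the log2 fold change was 2.23 (SE 0.08). Cdkn1b made up 3.71% of the summed inhibitor FPKM in NC and 7.77% with RAB6A siRNA. The summed FPKM of the 2 inhibitors per summed FPKM of the 3 kinases was 1.46 ± 0.0495 in NC, 1.43 ± 0.00791 in the SFRP2-labeled libraries and 4.52 ± 0.245 (SD, n = 3) with RAB6A siRNA. This ratio is of transcripts and not of proteins.

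When all tested genes were fitted together with limma, 4 of the 10 members were higher with RAB6A siRNA than with NC at an adjusted p under 0.05 (Ccnd3, Cdk2, Cdkn1a and Cdkn1b), where 37.6% of the 12712 genes tested were higher. The other 6 were lower (Ccnd1, Ccnd2, Ccne1, Ccne2, Cdk4 and Cdk6), where 36.5% of all genes were lower. With an absolute log2 fold change over 1 in addition, the thresholds for differentially expressed genes (DEGs) in this study, 2 members were higher (Cdkn1a and Cdkn1b) against 17.3% of all genes, and 2 were lower (Ccnd2 and Ccne2) against 12.8%. Since the members were chosen with these values known, nothing is read from these counts. Ccnd2 and Cdkn1a lay near the fold threshold. Ccnd2 came under it without RAB6A replicate 2 (-0.98) and with a pseudocount of 1 (-0.95), and after quantile normalization only Ccne2 and Cdkn1b were past it.

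The SFRP2-labeled libraries were close to NC for 8 of the 10 genes. Ccne2 was higher by 0.29 on the log2 scale (SE 0.09) and Cdk6 by 0.17 (SE 0.06), and in both the groups did not overlap. Without NC replicate 3, the lowest library for Ccne2 among NC, the value of Ccne2 was 0.19. The other members overlapped, with log2 fold changes from -0.13 (Ccnd3, SE 0.06) to 0.10 (Cdkn1b, SE 0.13). The value of Cdkn1b depended on single libraries, and was 0.24 (SE 0.08) without SFRP2 replicate 3, 0.04 without NC replicate 3, 0.05 without SFRP2 replicate 1 and 0.00049 without SFRP2 replicate 2. No member had an adjusted p under 0.05 with limma, as was so for all 12017 genes tested (0%). With voom on the recovered reads 64 genes were called, of which 0 were members. The study reported DEGs with SFRP2 siRNA in RAW264.7 cells, and its methods name a test for counts. That test was not run here, so the 0% holds for limma on FPKM only. At an unadjusted p under 0.05, limma called 2220 genes. Of the members, 2 were higher (Ccne2 and Cdk6) against 7.73% of all genes, and 0 were lower against 10.7%. Groups without overlap were found for 10.9% of genes that were higher and 13.9% of genes that were lower.

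**Figure D3:**
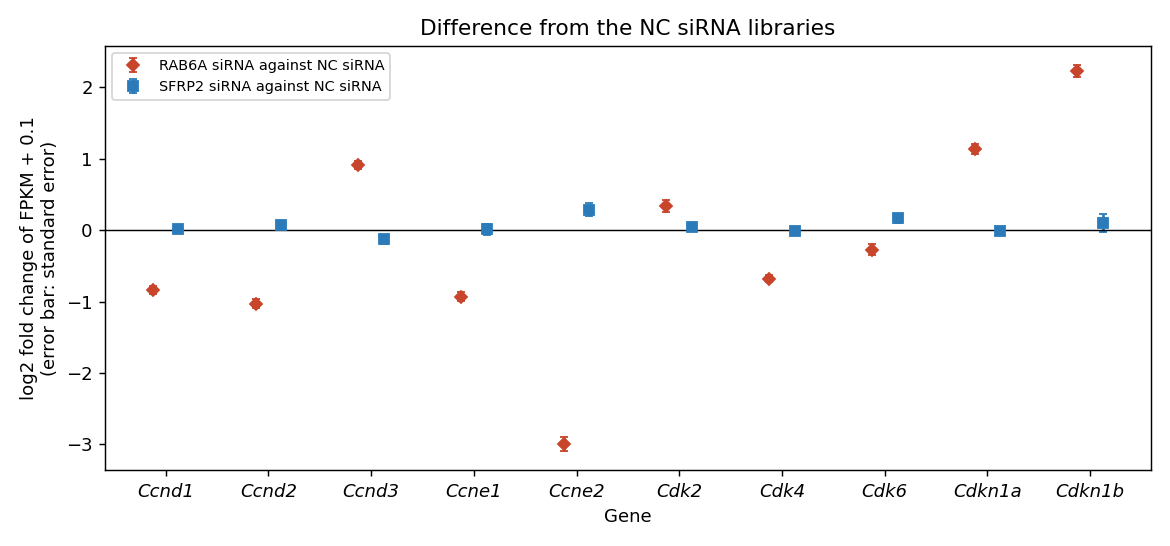
Log2 fold change of FPKM + 0.1 against NC for the 10 genes, with diamonds for RAB6A siRNA, squares for SFRP2 siRNA and bars for the standard error. Values for RAB6A siRNA reach from -2.99 (Ccne2) to 2.23 (Cdkn1b), and those for SFRP2 siRNA from -0.13 to 0.29.

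Against the SFRP2-labeled libraries, the RAB6A siRNA libraries gave the same directions for the members, with log2 fold changes of -3.28 (SE 0.07) for Ccne2, 2.13 (SE 0.13) for Cdkn1b, 1.14 (SE 0.07) for Cdkn1a, -1.10 (SE 0.07) for Ccnd2 and 1.04 (SE 0.07) for Ccnd3. The values of Ccne1 and Ccnd1 were -0.94 (SE 0.08) and -0.85 (SE 0.05), and those of Cdk4, Cdk6 and Cdk2 were -0.66 (SE 0.05), -0.44 (SE 0.07) and 0.30 (SE 0.09). Again 4 members were higher, where 37.6% of 12764 genes were, and 6 were lower, where 35.8% were. This comparison shares the RAB6A siRNA libraries with the one against NC, and the comparisons with NC share the NC libraries, so that they are not independent of each other. Cdk2 was no longer called in this comparison without SFRP2 replicate 2 (0.29) or SFRP2 replicate 3 (0.27), and was called in 15 of the 17 settings of the fit.

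Other genes of the G1/S network were taken from lists written by hand, without the 10 members. Against NC, 26 of the 41 tested genes of these 6 lists fell with RAB6A siRNA, 11 rose and 4 did not pass the test (limma, adjusted p under 0.05), with a median log2 fold change of -0.66 against 0.03 over all genes. Of all 12712 genes tested, 36.5% fell and 37.6% rose, and the counts of each list are read beside these shares. The lists were also written with results of these libraries known, and their counts are a description. In the SFRP2-labeled libraries, 0 of 42 tested genes were called, and 9 were higher and 2 lower at an unadjusted p under 0.05, where 7.73% of all genes were higher and 10.7% lower.

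Of the other CDK inhibitors, Cdkn2d (p19), which blocks Cdk4 and Cdk6, rose with RAB6A siRNA from 4.3 ± 0.339 to 12.0 ± 1.69 FPKM (SD, n = 3; log2 fold change 1.45, SE 0.11, limma adjusted p = 2e-05). Cdkn2c (p18) did not pass the test, with 2.35 ± 0.434 FPKM in NC and 2.51 ± 0.146 FPKM with RAB6A siRNA. Cdkn1c and Cdkn2b were under the filter. Cdkn2a was listed but did not match a single identifier of the deposited values, and so was not analysed here. The pocket proteins, which are the substrates of the G1 kinases, split, as Rbl2 and Rb1 rose by 1.81 (SE 0.11, adjusted p = 6.2e-06) and 1.51 (SE 0.08, adjusted p = 3.5e-06) on the log2 scale while Rbl1 fell by 1.81 (SE 0.07, adjusted p = 1.7e-06). In FPKM, Rbl1 was at 11.4 ± 0.534 in NC and 3.18 ± 0.192 with RAB6A siRNA, and Rb1 at 2.27 ± 0.109 and 6.65 ± 0.349 (SD, n = 3).

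Among the E2F and DP factors, which activate or repress transcription at the start of S phase, 7 of 9 tested genes fell and 1 rose. The atypical repressors E2f8 and E2f7 fell by 2.31 (SE 0.18) and 1.50 (SE 0.18) on the log2 scale, and Tfdp1, the main partner of E2F factors, fell by 1.66 (SE 0.06). E2f2 rose by 0.83 (SE 0.08), and E2f5 did not pass the test, with 8.48 ± 0.807 FPKM in NC and 9.23 ± 1.46 FPKM (SD, n = 3) with RAB6A siRNA. Of 7 genes that activate or restrain CDKs by phosphorylation, 6 fell, among them the kinase Wee1 (log2 fold change -1.52, SE 0.16) and the phosphatases Cdc25c (-1.25, SE 0.14) and Cdc25a (-0.67, SE 0.08). Mnat1, a subunit of the CDK-activating kinase, rose by 0.63 (SE 0.16).

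Of 16 genes for the degradation of G1 cyclins and their inhibitors, 6 rose, 8 fell and 2 did not pass the test, and the share that rose was near the 37.6% of all genes. Ambra1, a receptor for the degradation of D-type cyclins, rose by 0.77 on the log2 scale (SE 0.07), and the F-box genes Fbxo31 and Fbxo4 rose by 0.56 (SE 0.10) and 0.52 (SE 0.11). Cul1, the scaffold of the SCF ligases, fell by 1.55 (SE 0.07), Fbxw7, which recognizes cyclin E, fell by 0.91 (SE 0.08), and Dtl fell by 0.88 (SE 0.13). All 4 tested genes of the later cyclins and Cdk1 fell, with log2 fold changes of -2.35 (SE 0.11) for Ccna2, -2.17 (SE 0.09) for Ccnb1 and -1.86 (SE 0.14) for Ccnb2.

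The genes that E2F factors are known to switch on, with other proliferation genes, all fell with RAB6A siRNA (17 of 17 tested). Their median log2 fold change was -1.53, where 36.5% of all genes fell and the median was 0.03. This list was written with results of these libraries known, and nothing is read from its counts. Mcm3, a subunit of the replicative helicase, was at 46.0 ± 2.39 FPKM in NC and 12.0 ± 2.3 FPKM (SD, n = 3) with RAB6A siRNA (log2 fold change -1.95, SE 0.13). Cdc6 and Rrm2 had log2 fold changes of -1.87 (SE 0.12) and -1.84 (SE 0.09). In the SFRP2-labeled libraries 0 of these 17 genes were called, as was so for all genes tested (0%). At an unadjusted p under 0.05, 2 were higher and 3 lower, where 7.73% of all genes were higher and 10.7% lower.

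Cdkn1a is a target of p53, and 20 further p53 targets were listed, of which 19 were tested. With RAB6A siRNA 16 rose, 2 fell and 1 did not pass the test, with a median log2 fold change of 0.88, where 37.6% of all genes rose, 36.5% fell and the median was 0.03. Trp53inp1 rose from 0.659 ± 0.0876 to 14.9 ± 0.918 FPKM (log2 fold change 4.31, SE 0.11), the BH3-only gene Bbc3 (Puma) from 8.19 ± 0.44 to 69.6 ± 12.6 FPKM (3.06, SE 0.13) and Pmaip1 (Noxa) from 10.1 ± 1.48 to 53.9 ± 2.15 FPKM (SD, n = 3; 2.41, SE 0.10). Gadd45a and Sesn2 fell by 0.25 each (SE 0.09 and 0.05), and the call for Gadd45a was lost under 8 alternatives, also without NC replicate 1 or 2 or RAB6A replicate 1 or 3 (adjusted p of 0.0532 to 0.127 over the 8). Mdm2, the p53 ligase, was at 67.7 ± 3.24 FPKM in NC and 223 ± 20.1 FPKM with RAB6A siRNA, while Trp53 itself was at 45.0 ± 1.39 and 22.4 ± 2.17 FPKM (SD, n = 3). Mdm2 and Trp53 were named here after their values were seen. The list of p53 targets was itself written with results of these libraries known, and nothing is read from its counts.

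Of 11 tested upstream regulators of the members, 5 rose and 5 fell, where 37.6% of all genes rose and 36.5% fell. This list, too, was written with results known, and nothing is read from its counts. Myc, which is known to promote transcription of Ccnd2 and Cdk4 and to repress Cdkn1a, fell from 92.1 ± 1.08 to 6.08 ± 0.286 FPKM (SD, n = 3), a log2 fold change of -3.90 (SE 0.06, limma adjusted p = 1.5e-07). Fos fell by 1.13 (SE 0.07) and Cebpa by 1.02 (SE 0.10). Jun rose by 1.16 (SE 0.06), and Foxo3 and Foxo4, which are known activators of Cdkn1b, rose by 0.92 (SE 0.06) and 0.78 (SE 0.08). In the SFRP2-labeled libraries Myc was at 95.4 ± 2.36 FPKM. The part of any of these regulators in the levels of the members was not tested.

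**Figure D4:**
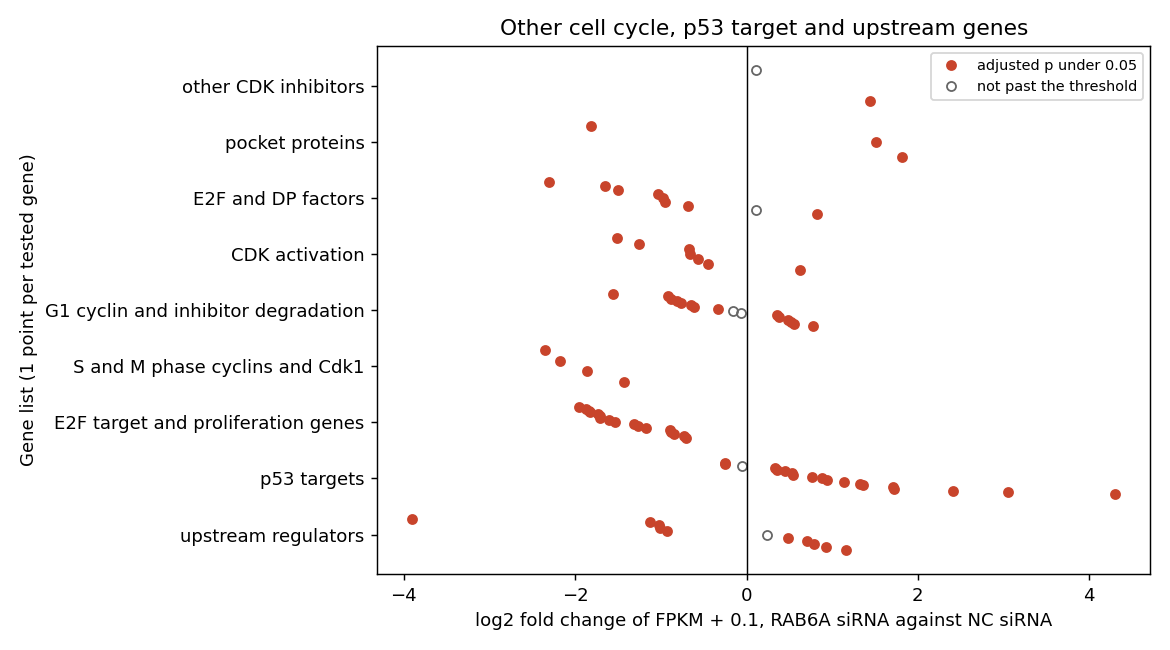
Log2 fold change of FPKM + 0.1 with RAB6A siRNA against NC for the tested genes of 9 lists, with filled points for an adjusted p under 0.05 (limma). All 17 E2F target and proliferation genes lie left of 0 and 16 of 19 p53 targets are filled points right of 0. The lists were written with results known.

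Some macrophage and LPS response genes also differed in the RAB6A siRNA libraries, where 37.6% of all genes rose and 36.5% fell. These lists were written with results known, and nothing is read from their counts. Of 8 macrophage markers, Lyz2, Csf1r and Spi1 fell by 2.03 (SE 0.09), 1.44 (SE 0.09) and 1.05 (SE 0.08) on the log2 scale, Ptprc rose by 0.17 (SE 0.06) and 4 did not pass the test. Of 5 LPS response genes, Ptgs2 rose by 0.68 (SE 0.10) and Il1b by 0.21 (SE 0.07), Il6 fell by 0.94 (SE 0.09) and Tnf fell by 0.67 (SE 0.07), and Nos2 did not pass the test. Of 2 tested fibroblast markers, Col1a2 rose by 1.17 (SE 0.28) from 0.31 ± 0.0815 to 0.825 ± 0.184 FPKM (SD, n = 3). Krt18, the epithelial marker that was tested, had 0.421 ± 0.232 FPKM in NC and 0.886 ± 0.332 FPKM with RAB6A siRNA and did not pass. After quantile normalization Ptgs2 was at 0.22 and Col1a2 at 0.54 and neither was called, and the calls of Ptprc and Il1b were also lost when single libraries were left out (7 and 5 alternatives in all). The part of these differences in the values of the cyclins, kinases and inhibitors was not tested.

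For the 3 members with the widest range of group means, the genes with the most similar profile were looked for among 10120 protein-coding genes, by the root mean square difference of centred log2 values over the 9 libraries. For Ccne2 these were A630089N07Rik (0.0921) and Edn1 (0.104), the gene of endothelin-1, which had 69.2 FPKM in NC, 79.5 FPKM in the SFRP2-labeled libraries and 8.83 FPKM with RAB6A siRNA. Those of Cdkn1b were Pcmtd1 (0.0939), at 3.3, 3.61 and 16.1 FPKM in the same order, and Cp (0.104), the gene of ceruloplasmin. Those of Cdkn1a were Prdm10 (0.0541) and Utrn (0.0551), the gene of utrophin, at 1.08, 1.1 and 2.43 FPKM. With 9 libraries in 3 groups, such likeness includes that of the group means, and it was not tested.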

How the data were processed

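RNA-seq of 9 RAW264.7 libraries was used, 3 each labeled NC, SFRP2 and RAB6A siRNA, with groups taken from the labels. Values of each library were deposited as FPKM by the authors. The submitters' processing notes name HISAT2, featureCounts and Subread. The versions, the genome build and the use of strand in counting are not given in the sources used here. Genes were named from GENCODE M21 (GRCm38), and 604 of 28137 identifiers had no name there.

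The product of FPKM and exon length was a whole multiple of 1 read in all 9 libraries for 27081 genes. They were 98.4% of those named, within 0.03 of a read. The step of 1 read gave the library sizes (32758730 to 47149258 reads). The recovered reads of these genes summed to 28467630 to 41950318 per library. A number of reads speaks only to counting error and not to the spread between libraries. No pair of libraries of a group agreed within sampling noise (mean chi-square per gene 11.1 to 21.6).

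The study's methods name a test for counts. The deposited unit is FPKM, so log2(FPKM + 0.1) was fitted with limma 3.58.1 in R 4.3.3 (eBayes with trend, Benjamini-Hochberg over all genes tested). A filter kept genes with a mean of at least 0.5 FPKM over the 6 libraries of a comparison, and DEGs passed thresholds of 0.05 on the adjusted p and 1 on the absolute log2 fold change. Fold changes are on the log2(FPKM + 0.1) scale, which understates changes of low genes. The scripts were tested on simulated data. Python 3.11.15, numpy 2.4.6, pandas 2.3.3, scipy 1.17.1 and matplotlib 3.10.9 were used for other steps.

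The members and all gene lists were chosen with earlier results of these data known. Named genes were the 10 members, up to 3 highest and 3 lowest called genes of each list with RAB6A siRNA against NC, the 2 genes closest in profile to each of the 3 members of widest range, Sfrp2 and Rab6a. Genes outside this rule (such as Cdkn2c, E2f5, Mdm2, Trp53, Nos2 and Krt18) were named after their values were seen. Alternatives were the pseudocounts 1 and 0.01, no filter, a filter at 1 FPKM, quantile normalization, median-of-ratios scaling, a block for the replicate number, eBayes without trend, 1 fit to all 9 libraries, voom on recovered reads, and each library left out. The values of 1 further marker list are not reported here.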

Additional observations from a re-analysis of the deposited data

How the results depend on the processing

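The fold changes of the members, those of the named list genes with RAB6A siRNA against NC, and 6 counts of called genes were recomputed under 16 alternatives. Shares, sums, orders of levels, likeness of profiles, marker sums, other list counts and genes named outside the rule were not recomputed. With RAB6A siRNA against NC, 9 to 10 members had an adjusted p under 0.05, 36 to 38 of the G1/S network genes and 17 to 18 of the p53 targets. The main fit tested 41 of these network genes and 19 of these p53 targets. It called 9418 of all 12712 genes, so nothing is read from these counts. Against the SFRP2-labeled libraries, 9 to 10 members were called with RAB6A siRNA, where the main fit called 9369 of all 12764 genes. Between SFRP2 siRNA and NC, 0 members were called in each setting, where the main fit called 0 of all 12017 genes. After quantile normalization, 2 members instead of 4 were past both DEG thresholds, since Ccnd2 (-0.95) and Cdkn1a (0.94) came under the fold threshold. It was 3 with a pseudocount of 1 and 3 to 4 when a library was left out. The log2 fold change of Ccne2 with RAB6A siRNA against NC ranged from -3.12 (quantile normalization) to -2.41 (pseudocount 1) and that of Cdkn1b from 2.03 to 2.29. No member or named list gene that was called changed its direction, and 22 values of Gadd45a, Ptprc, Il1b, Ptgs2 and Col1a2 lost their call. With the replicate number as a replicate block, 10, 0 and 10 members were called in RAB6A siRNA against NC, SFRP2 siRNA against NC and RAB6A siRNA against SFRP2 siRNA. In the same order, the block called 9103 of 12712, 0 of 12017 and 9159 of 12764 genes. Deviations of libraries with the same number had correlations of -0.0847 to 0.0477. Whether such libraries were made together is not stated, and these correlations cannot settle it. At an unadjusted p under 0.05, the block called 2988 genes in SFRP2 siRNA against NC, where the fit without it called 2220. Under the block 4 members were past the DEG thresholds, and 37 network genes and 18 p53 targets were called. Leaving out 1 library left 1 group with 2 libraries, so that its spread rests on fewer values. Each member had at least 158 reads in each library. The precision rests on 3 libraries per group.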
